A study of Ascaris suum with 28 samples.

Results

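The RNAs described here are 131 of 15399 gene identifiers of the parasitic roundworm Ascaris suum that first became abundant in the embryo between 46 h and 64 h, when the egg makes its first cleavages. They were chosen from their levels in poly(A) RNA. A member had an RPKM (reads scaled to gene length in kilobases and to library size) under 1 in oocytes and under 10 in zygotes from all 4 uterus regions and in 24 h embryos. It then had an RPKM of 10 or more in the 46 h library, the 64 h library or both. Of the 15399 genes, 5342 were under 1 in oocytes, and 5000 of these stayed under 10 through 24 h. The members are the few of these 5000 that reached 10 in poly(A) RNA at 46 h or 64 h.

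The worms came from a North American wild population, and each library was made from pooled synchronized material of many females. The 13 poly(A) libraries were 1 each of oocytes, zygotes from uterus regions 1 to 4, embryos of 24 h (1 cell), 46 h (1 to 2 cells), 64 h (2 to 4 cells), 96 h (10 to 26 cells), 116 h (32 to 64 cells) and 7 days (256 cells), and L1 and L2 larvae. The 15 other measurements were the free, middle and heavy fractions of polysome gradients from region 4 zygotes (day 0) and from embryos of day 1 (1 cell), day 3 (4 to 8 cells), day 5 (32 to 64 cells) and day 7 (256 cells). No group carried a treatment or a mutation, and all embryos from 24 h on were incubated region 4 zygotes. Every stage had 1 library of each kind, so a level at one stage has no replicate. The RNA is from whole embryos, where fewer expressing cells and less RNA per cell cannot be told apart. The files pair no identifier with a gene name, so members are given by identifier, no role is stated for them, and no marker list was read against the labelled stages.

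In animal embryos the egg brings a store of RNA made by the mother. The embryo's own genome is switched on over this store during early development. In Ascaris the first cleavages are slow, and the cells that will form the body lose part of their chromatin during them. A polysome gradient separates RNA by the number of ribosomes it carries: RNA without ribosomes stays in the free fraction, and RNA with many ribosomes sediments to the heavy one.

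The members were low or absent before 24 h and reached their highest median at 64 h. The median of the 131 RPKM values was 0.1 in oocytes, 0.7, 0.9, 1.2 and 1.1 in zygote regions 1 to 4, 5.8 at 24 h, 9.5 at 46 h and 13.2 at 64 h. It then went to 9.7 at 96 h, 5.0 at 116 h, 4.7 at 7 days, 9.1 in L1 and 5.4 in L2. The values up to 64 h chose the members and are given only as a description. The median of all 15399 genes was 5.0 in oocytes and 8.4 at 24 h, then 5.3 at 64 h and 3.3 at 116 h. Between 24 h and 64 h it was thus lower at the later age, while that of the members was higher.

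"New" is a matter of the threshold for a part of the members. In oocytes 56 of the 131 were listed at 0, and 39 stayed under 1 in each zygote region. At 24 h, however, 83 were already at 5 or more and 21 at 9 or more. Between 24 h and 46 h 107 members had a higher value, and between 46 h and 64 h 97 did. Just inside the limits, ASU_00427 and ASU_06822 stood at 0.9 in oocytes, ASU_14047 at 9.9 and ASU_11586 at 9.8 in their highest library before 46 h, and ASU_15434 at 10.0 and ASU_03259 at 10.1 at their highest of 46 h and 64 h. Just outside, ASU_06603 and ASU_08920 stood at 1.0 in oocytes, ASU_01647 and ASU_12044 at 10.0 before 46 h, and ASU_06344 and ASU_08010 at 9.9 at 46 h or 64 h.

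**Figure D1:**
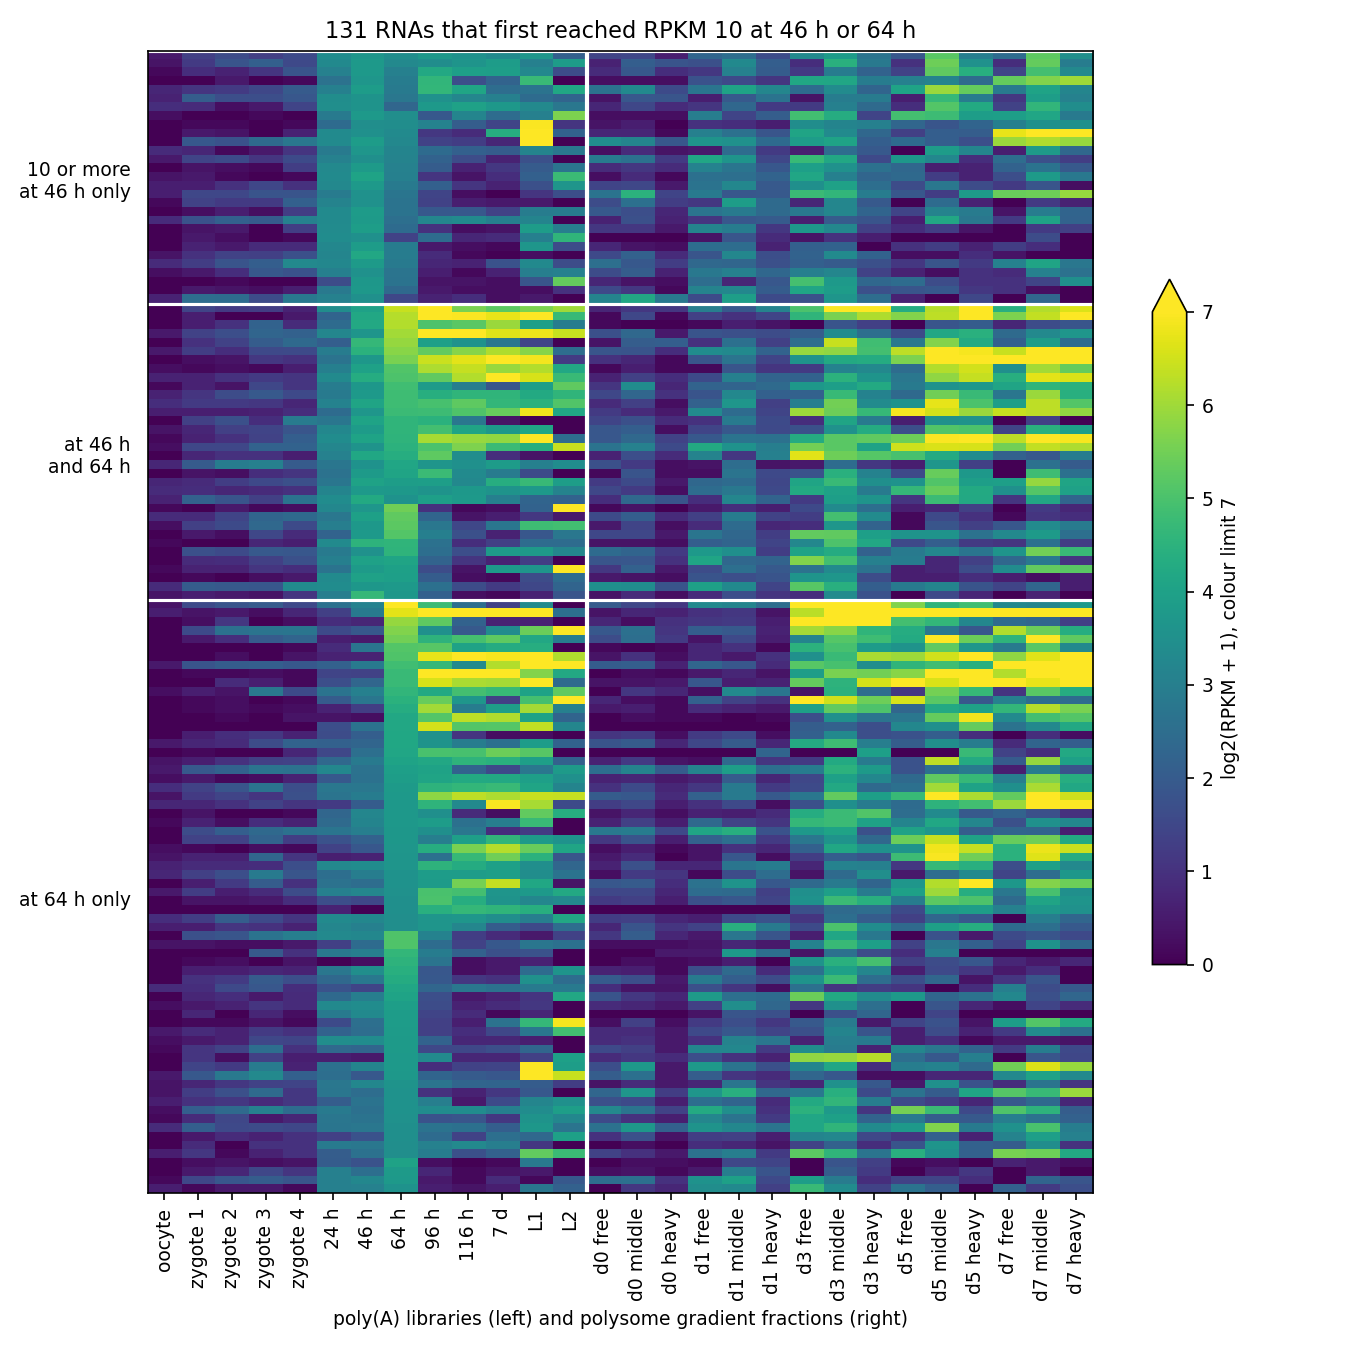
Heat map of log2(RPKM + 1) for the 131 members (rows) in 13 poly(A) libraries and 15 gradient fractions (columns), with rows grouped by whether they reached RPKM 10 at 46 h, at both ages or at 64 h, and colour limited at 7. The day 3, day 5 and day 7 fractions on the right are brighter than the day 0 and day 1 fractions for most rows.

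Most members crossed RPKM 10 at 64 h. Of the 131, 68 reached it at 64 h and not at 46 h, 34 at both ages, and 29 at 46 h but not at 64 h. The 34 of both ages were the most abundant group, with a median RPKM of 14.85 at 46 h and 24.80 at 64 h. The 29 of 46 h went from a median of 8.4 at 24 h to 12.2 at 46 h and 6.3 at 64 h, a narrow range.

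The 2 members highest at 46 h both stood at 24.1 there. ASU_02902 had 0.3 in oocytes, 0.5, 0.4, 0.3 and 1.1 in the zygote regions, 7.0 at 24 h, 24.1 at 46 h, 12.0 at 64 h and 3.4 at 96 h, and was at 0.2 at 116 h and 0.1 at 7 days. Up to 7 days it was therefore a brief RNA, highest in the 46 h library. ASU_09464 had 0.0 in oocytes, 1.0, 1.6, 3.1 and 4.3 in the zygote regions, 3.3 at 24 h, 24.1 at 46 h, 58.8 at 64 h, 14.5 at 96 h, 10.8 at 116 h and 5.9 at 7 days, with 1.7 in L1 and 0.0 in L2. Its peak was at 64 h, followed by lower values in each later library.

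Among the members that reached 10 at 64 h and not at 46 h, ASU_09129 and ASU_03503 were the highest at 64 h and took different courses. ASU_09129 had 0.3 in oocytes, 2.0, 2.5, 3.0 and 1.9 in the zygote regions, 5.1 at 24 h, 7.6 at 46 h and 170.1 at 64 h. No other member was as high at 64 h. It stood at 26.3, 4.8 and 1.6 at 96 h, 116 h and 7 days, 9.1 in L1 and 0.0 in L2. ASU_03503 had 0.5 in oocytes, 0.3, 0.4, 0.2 and 0.7 in the zygote regions, 1.5 at 24 h, 6.2 at 46 h and 103.4 at 64 h. In later poly(A) libraries it stood at 737.0 at 96 h, 3330.2 at 116 h, 5300.3 at 7 days, 683.5 in L1 and 4.9 in L2. It was the highest member in each library from 96 h to L1.

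ASU_00879 and ASU_11109 had the highest Pearson r with the members' median profile, at 0.946 and 0.935 on log2(RPKM + 1) over the 13 poly(A) libraries. ASU_00879 had 0.8 in oocytes, 0.7 to 1.0 in the zygote regions, 8.0 at 24 h, 12.9 at 46 h, 12.2 at 64 h, and 11.0, 12.4, 11.2, 12.9 and 7.8 from 96 h to L2. It held a steady moderate level from 46 h on. ASU_11109 likewise lay between 9.2 and 12.4 in each library from 24 h to L1, and at 3.4 in L2. The members' median instead went from 13.2 at 64 h to 5.0 at 116 h, a fall that neither showed. A high r thus did not mean the same course after 64 h.

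**Figure D2:**
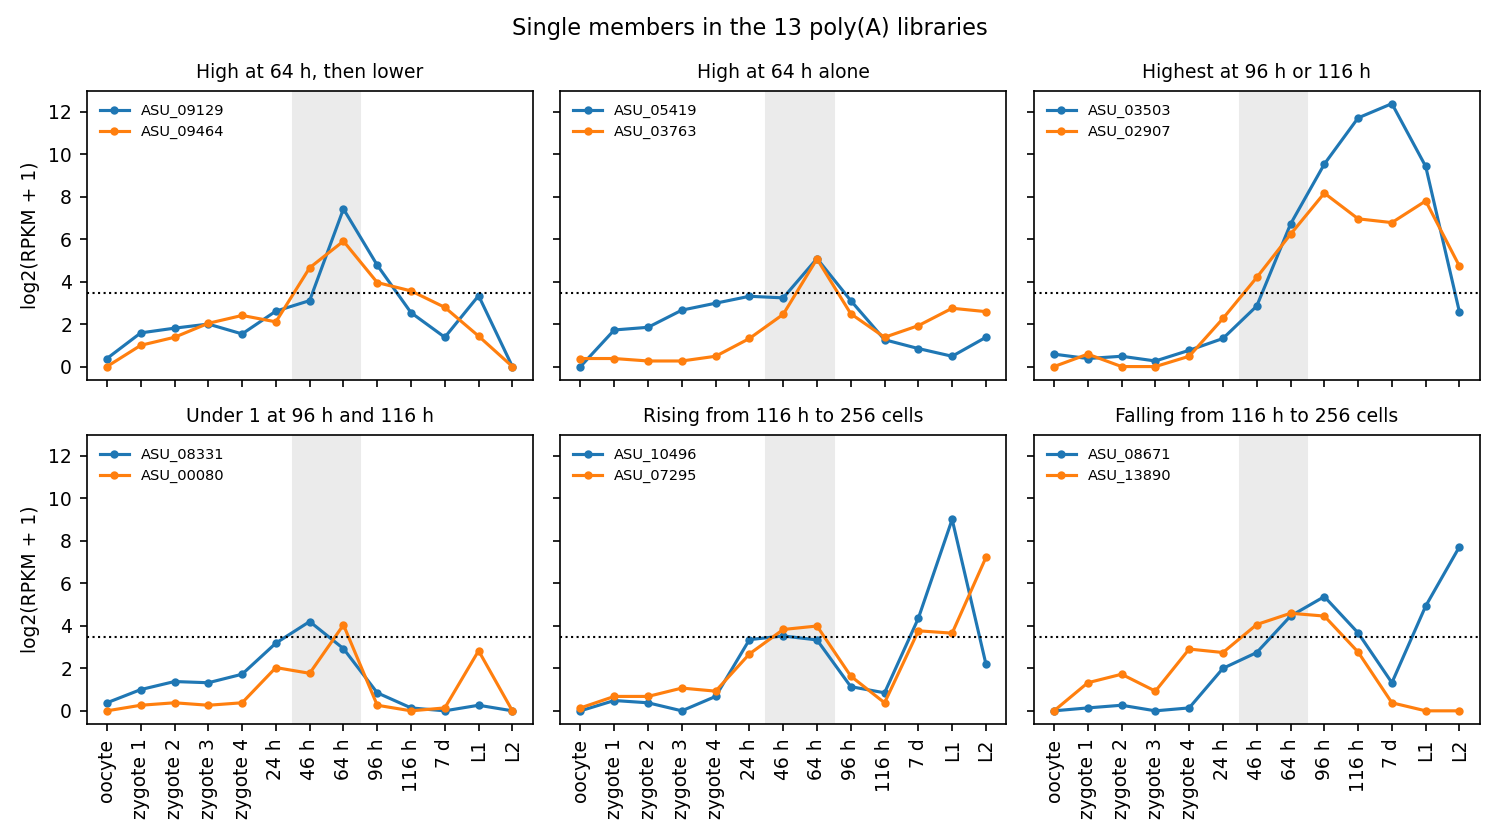
log2(RPKM + 1) of 12 single members over the 13 poly(A) libraries, 1 library per stage, with 46 h and 64 h shaded and a dotted line at RPKM 10. The panels set members that were lower after 64 h beside ASU_03503, which reached 5300.3 at 7 days, and ASU_10496, which had at most 10.5 up to 64 h and 514.6 in L1.

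After 64 h the members had different courses. At 96 h or 116 h 68 of the 131 (51.9%) were at 10 or more, where 42.9% of all genes were, and 11 (8.40%) were under 1 at both ages, where 33.9% of all genes were. The other 52 lay in between. At 96 h alone 49.6% of members and 40.7% of all genes were at 10 or more, and at 116 h 36.6% and 39.7%. Of the 34 members that reached 10 at both 46 h and 64 h, 23 were at 10 or more at 96 h or 116 h. Of the 68 of 64 h, 38 were, 26 were in between and 4 were under 1. Of the 29 of 46 h, all under 10 at 64 h, 7 were at 10 or more again, 15 were in between and 7 were under 1.

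A fold of at least 4 on RPKM + 1, with 10 or more in one of the libraries compared, served to mark large differences between single libraries, and carries no test. By this measure 23 members (17.6%) were lower at 96 h than at 64 h, where 3.16% of all genes were. Another 4 members (3.05%) were higher (all genes 1.0%). At 116 h against 64 h 39 members were lower (29.8%, all genes 5.27%) and 4 higher (3.05%, all genes 1.75%). Both comparisons share the 64 h library, whose values chose the members, so nothing is read from their excess over all genes. From 96 h to 116 h, libraries that the rule did not use, 6 members were lower (4.58%; all genes 0.974%) and 2 higher (all genes 0.422%). From 116 h to 7 days 5 were higher (3.82%; all genes 2.01%) and 1 lower (all genes 0.24%).

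High at 64 h alone, that is at 10 or more there and under 10 in each of the 12 other poly(A) libraries, were 16 members. Their 64 h values ran from 10.1 to 32.9, with a median of 13.4. Their medians were 6.2 at 24 h, 6.4 at 46 h, 2.85 at 96 h, 0.75 at 116 h, 0.8 at 7 days, 1.8 in L1 and 0.0 in L2. Most of the 16 were thus present below the limit at 24 h and 46 h.

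ASU_05419, the highest of these 16, had 0.0 in oocytes, 2.3, 2.6, 5.3 and 6.9 in the zygote regions, 8.9 at 24 h, 8.4 at 46 h, 32.9 at 64 h, 7.6 at 96 h, 1.4 at 116 h, 0.8 at 7 days, 0.4 in L1 and 1.6 in L2. ASU_03763 had 0.3 in oocytes, 0.2 to 0.4 in the zygote regions, 1.5 at 24 h, 4.5 at 46 h, 32.5 at 64 h, 4.6 at 96 h, 1.6 at 116 h, 2.8 at 7 days, 5.7 in L1 and 5.0 in L2. ASU_05419 built up gradually through the uterus and stood well above its 46 h value only at 64 h, whereas ASU_03763 was near the floor until 24 h. In the gradients of days 0, 1, 3, 5 and 7, 1, 4, 8, 3 and 2 of the 16 were at 10 or more in a fraction. The shares of all genes on these days were 48.3%, 49.8%, 47.1%, 50.9% and 54.7%. The day 3 count was thus near the share of all genes, and the other counts were below it. The 16 were chosen by being under 10 in every other poly(A) library, so these counts are a description only. ASU_03763 was at 7.6, 25.3 and 14.5 in the free, middle and heavy fractions of day 3, and ASU_05419 at 0.5, 16.6 and 6.0.

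The 11 members under 1 at both 96 h and 116 h were led by ASU_08331 and ASU_00080. ASU_08331 had 8.1 at 24 h, 17.4 at 46 h, 6.6 at 64 h, 0.8 at 96 h, 0.1 at 116 h, 0.0 at 7 days, 0.2 in L1 and 0.0 in L2. ASU_00080 had 3.1 at 24 h, 2.4 at 46 h, 15.5 at 64 h, 0.2 at 96 h, 0.0 at 116 h, 0.1 at 7 days, 6.1 in L1 and 0.0 in L2. Both were above 10 in a single library and under 1 in each library from 96 h to 7 days. Among the 11, 2 were at 10 or more again in a larva.

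In 7-day embryos and larvae the share of members at 10 or more was near that of all genes. It was 37.4% at 7 days (all genes 40.7%), 48.1% in L1 (all genes 46.7%) and 35.1% in L2 (all genes 33.3%). In at least 1 of these libraries 85 members (64.9%; all genes 56.3%) were at 10 or more, 57 of the 68 that were so at 96 h or 116 h and 28 of the others. The poly(A) library with the highest value was 64 h for 37 members, 46 h for 20, L1 for 19, L2 for 18, 96 h for 15, 7 days for 13 and 116 h for 9. Among the 63 members that were under 10 at 96 h and 116 h, 3 were at 10 or more at 7 days, 15 in L1 and 19 in L2.

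Between 7 days and L1, libraries outside the rule, 18 members (13.7%) were at least 4-fold higher in L1, where 7.89% of all genes were, and 4 (3.05%) were lower, where 0.318% were. From L1 to L2 11 members were 4-fold higher (all genes 3.0%) and 23 lower (all genes 9.68%). The L2 library resolved low levels less well than the others. Its 5th percentile of values above 0 was 1.3 RPKM, against 0.1 or 0.2 in the other poly(A) libraries, and 29.8% of all genes and 31 of the members were listed at 0. The part of this in the L2 comparison was not tested.

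ASU_07435 shared the second highest larval value with ASU_10496. It was at 5.0 at 24 h, 7.9 at 46 h, 12.5 at 64 h, 0.9 at 96 h, 1.6 at 116 h and 1.7 at 7 days, then at 514.6 in L1 and 13.8 in L2. Its 64 h level was thus a small fraction of its L1 level. In the day 7 gradient it was at 44.1, 97.2 and 59.6 in the free, middle and heavy fractions, far above its 1.7 in the poly(A) library of the same cell number.

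The polysome gradients took no part in choosing the members and give their levels in other samples. The median of the members in the free, middle and heavy fractions was 0.8, 1.5 and 0.4 on day 0, then 2.3, 4.4 and 1.7 on day 1. The day 3 medians were 7.1, 14.9 and 5.5, those of day 5 were 4.0, 10.4 and 6.2, and day 7 gave 4.1, 13 and 6.7. All genes had medians of 8.6, 8.6, 7.7, 8.7 and 13 in the middle fraction over the 5 days. The members were below all genes in each fraction on days 0 and 1 and above them in each fraction on day 3.

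**Figure D3:**
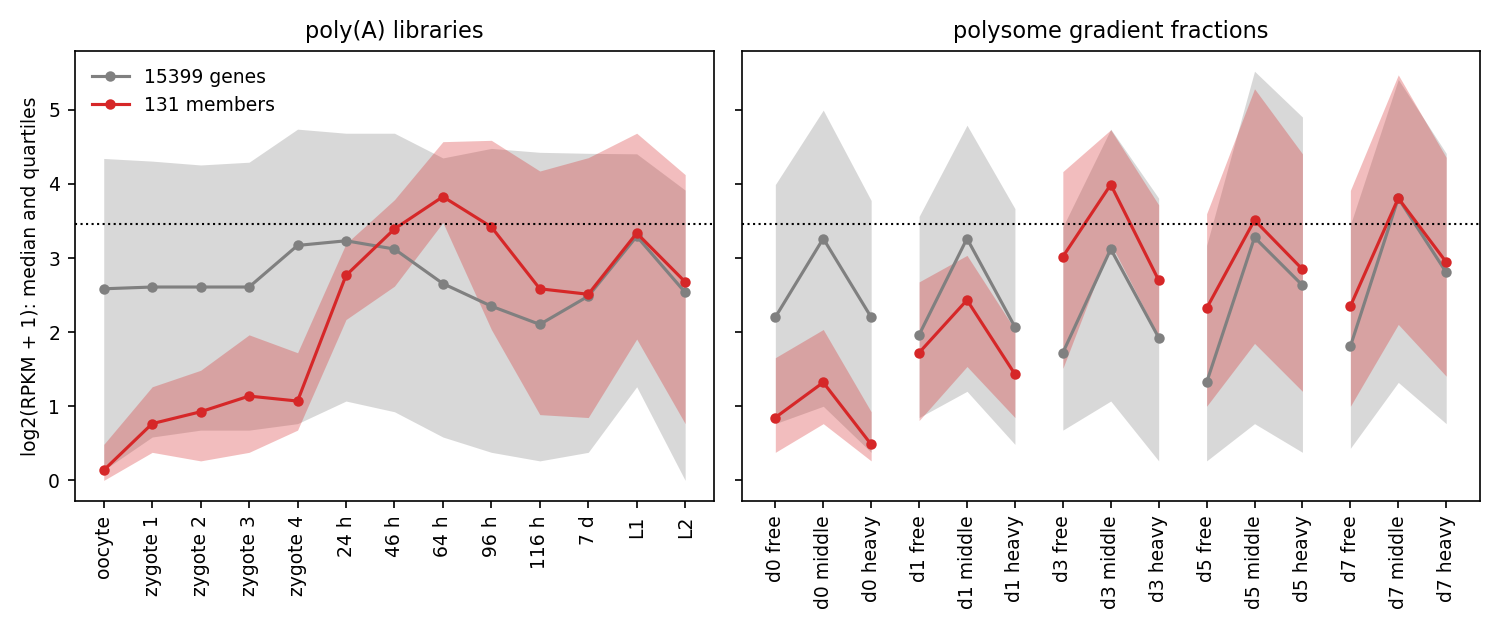
Median (points) and quartiles (bands) of log2(RPKM + 1) for the 131 members and for 15399 genes, in the poly(A) libraries and in the gradient fractions joined within each day; the dotted line marks RPKM 10. The members' median is below that of all genes through 24 h and on days 0 and 1, and above it at 64 h and on day 3.

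From day 0 to day 7, the members at 10 or more in any fraction numbered 6, 22, 91, 73 and 77. For all genes the share was flat, at 48.3%, 49.8%, 47.1%, 50.9% and 54.7%. Between days 1 and 3 21 members (16.0%) were at least 4-fold higher in all 3 fractions, where 0.494% of all genes were, and none was lower (all genes 0.052%). Of the 4869 other genes that were under 1 in oocytes and under 10 through 24 h, 5 (0.103%) were higher by this measure. Those genes were under 10 at 46 h and 64 h by the rule, which bears on their share, so nothing is read from it. The members had to reach 10 at 46 h or 64 h, so their excess over all genes is a description only. With 5 in place of 1 added to the RPKM, the count of members was 10.

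The difference on day 3 was spread unevenly over the members. Of the 68 of 64 h, 14 were 4-fold higher on day 3 in all fractions, and of the 34 of both ages 7. None of the 29 of 46 h was. These 29 were grouped by being under 10 at 64 h and the others by being at 10 or more, so this split is a description only. With no minimum fold, 91 of the 131 (69.5%) were higher on day 3 than on day 1 in every fraction, against 19.7% of all genes. Day 1 embryos were still 1 cell, and 109 members were under 10 in each of their fractions. Of these 109, 73 (67.0%) reached 10 in a fraction on day 3, against 9.43% of the 7723 genes that were under 10 on day 1. By the rule the members had to reach 10 at 46 h or 64 h, and the genes compared did not. This bears on both comparisons, so the excess over all genes is a description only.

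ASU_13231 and ASU_09129 had the highest day 3 values. In the free, middle and heavy fractions ASU_13231 had 0.7, 1.2 and 1.2 on day 0, 6.9, 2.8 and 7.8 on day 1, and 31.1, 190.0 and 456.8 on day 3. On day 5 it had 19.1, 75.2 and 198.0, and on day 7 20.5, 72.0 and 97.9. The heavy fraction held its highest value on each of the 3 last days. In poly(A) RNA it had 0.0 in oocytes, 0.6 to 1.7 in the zygote regions, 9.8 at 24 h, 15 at 46 h, 83.4 at 64 h and 185.4 at 96 h, with 37 to 63.3 afterwards.

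ASU_09129 had 3.0, 1.8 and 1.2 in the free, middle and heavy fractions of day 0 and 8.9, 7.9 and 4.7 of day 1. It reached 182.1, 214.9 and 270.3 on day 3, then 49.9, 22.5 and 28.0 on day 5 and 8.6, 8.1 and 12.9 on day 7. Gradient and poly(A) libraries thus gave the same short peak for it, at 64 h and on day 3.

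Some members at 10 or more at 64 h were low in the gradient. Of these 102 members 26 (25.5%) were under 10 in each day 3 fraction, where 8.76% of the 6076 genes at 10 or more at 64 h were. Of all 131, 40 were under 10 in each day 3 fraction and 17 in all 15 gradient columns. Members were low on day 3 less often than genes at large: 69.5% of members and 47.1% of all genes reached 10 in a fraction. No share of all genes was computed for the 17, so nothing is read from that count. Taken as the mean of the 3 fractions, the day 3 gradient was 4-fold below the 64 h library for 13 members (9.92%; all genes 2.56%) and above it for 2 (1.53%; all genes 1.4%). The stages differ, at 4 to 8 cells against 2 to 4, and so does the preparation. The 64 h values chose the members, so this excess is a description only.

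Among the 20 members highest at 64 h, ASU_15395 and ASU_00550 had the lowest day 3 gradient values. ASU_15395 had 0.0 in oocytes, 0.5, 1.0, 3.6 and 0.8 in the zygote regions, 4.5 at 24 h, 17.7 at 46 h, 72.3 at 64 h, 32.3 at 96 h, 36.2 at 116 h, 61.1 at 7 days, 14.5 in L1 and 6.6 in L2. Its gradient values were 0.0, 2.5 and 1.5 on day 3, 0.0, 2.6 and 3.1 on day 5, and 0.7, 2.1 and 2.6 on day 7. It was low in the gradient at each stage, including days 5 and 7, where the poly(A) libraries of the same cell numbers had 36.2 and 61.1. ASU_00550 had 0.1 in oocytes, 0.0 to 0.4 in the zygote regions, 8.5 at 24 h, 11.8 at 46 h, 44.0 at 64 h, 1.0 at 96 h, 0.1 at 116 h, 0.2 at 7 days, 3.6 in L1 and 179.7 in L2. It had 1.9, 9.1 and 4.8 in the day 3 gradient and at most 1.5 on days 5 and 7, as in the poly(A) libraries of those stages.

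**Figure D4:**
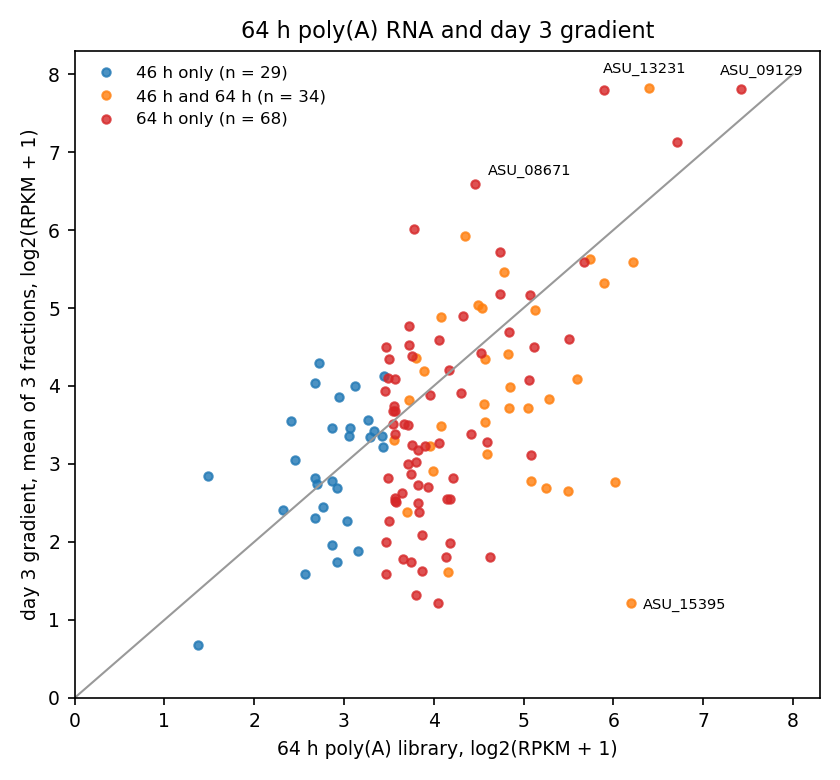
Each point is 1 of the 131 members, with its 64 h poly(A) level on the horizontal axis and the mean of its 3 day 3 gradient fractions on the vertical axis, both as log2(RPKM + 1), coloured by the ages at which it reached RPKM 10; the line marks equal values. ASU_15395 lies far below the line, ASU_13231 and ASU_09129 at the top.

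Across the 131 members, day 3 gradient means and 64 h levels had a Pearson r of 0.537 and a Spearman rho of 0.410 on the log2 scale. Pairs of the same cell number had a higher Pearson r among the members. It was 0.644 for day 1 and 24 h and 0.889 for day 5 and 116 h. For day 7 and 7 days it was 0.813. Over all genes the same 4 values were 0.904, 0.939, 0.952 and 0.897, so day 7 was below day 3 there. The rule limited the members' values at 24 h and 64 h but not at 116 h and 7 days. The order of the members' r values is thus a description only. All these values are correlations across genes, which are not independent replicates, and each pair shares 1 library of each kind.

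At 256 cells the gradient and the poly(A) library differed for some members. Taken as the mean of the 3 fractions, day 7 was at least 4-fold above the 7-day poly(A) library for 9 members (6.87%; all genes 3.96%) and below it for 3 (2.29%; all genes 0.779%). ASU_12540 had 0.7 in the 7-day poly(A) library and 61.1, 70.7 and 59.0 in the free, middle and heavy fractions of day 7, beside 205.7 in L1. ASU_02813 was listed at 0.0 at 7 days and had 41.1, 43.0 and 59.4 in the fractions, with 1.1 in L1. For day 5 against 116 h the counts were 3 above (2.29%; all genes 2.62%) and 2 below (1.53%; all genes 0.266%). Both members are given as examples picked after their values were seen.

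Genes chosen by the same rule one step earlier or later were first high in the gradient on a different day. Of the 151 genes that first reached 10 at 24 h, 23 (15.2%) were at 10 or more in a fraction on day 0. On days 1 and 3, 106 (70.2%) and 112 (74.2%) were. Of the 156 genes that first reached 10 at 96 h or 116 h, 4 (2.56%) were on day 0 and 4 (2.56%) on day 1. On days 3 and 5, 39 (25.0%) and 147 (94.2%) of them were. The 131 members lay between these sets, with 22 (16.8%) on day 1 and 91 (69.5%) on day 3. All genes had 48.3%, 49.8%, 47.1% and 50.9% on days 0, 1, 3 and 5. The rule kept each set under 10 in poly(A) RNA before its own age, so this order is a description only.

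Position within the gradient was tested over all 15 fractions with limma on log2(RPKM + 1), with the day as a block and p adjusted by the Benjamini-Hochberg method over 13771 genes. All 131 members passed its filter. Because the 5 days stand in as replicates, p measures the spread between days. In heavy against free, 28 members were higher (21.4%; all genes 29.8%) and 25 lower (19.1%; all genes 19.6%), at a median log2 difference of 0.22 against 0.12 for all genes. In middle against free, 67 were higher (51.1%; all genes 54%) and 2 lower (1.53%; all genes 2.4%), at a median of 0.81 against 0.92. The members' shares were near those of all genes in 3 of these counts and below it for heavy higher than free; no test of this was run.

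The split depends on how fractions are scaled to each other. Quantile normalization moved the median of all genes in heavy against free from 0.12 to -0.05, and median-ratio scaling to -0.34; in middle against free it went from 0.92 to -0.02 and -0.26. In heavy against free, 30 members were higher and 39 lower under quantile normalization (all genes 26.9% and 27.4%). Under median-ratio scaling they were 19 and 52 (all genes 22.1% and 38.5%). In middle against free they were 25 and 41 (all genes 22.8% and 21.3%), or 17 and 49 (all genes 19.9% and 32.6%). The members' share lower in middle was thus above that of all genes under both scalings, which was not tested. Without day 3 or without day 5 the count higher in heavy was 16 in each case (all genes 24.8% and 24.7%). Without day 7 the middle counts were 44 and 4 (all genes 49.3% and 2.52%).

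ASU_15428 and ASU_10676 had the largest differences among the members that were higher in heavy than free on each of the 5 days. ASU_15428 had 0.0, 0.2, 0.3, 1.2 and 1.1 in the free fraction from day 0 to day 7, against 0.7, 5.7, 4.7, 25.0 and 19.3 in the heavy one. Its middle values were 1.2, 8.9, 21.3, 45.4 and 35.8. It was higher in heavy than free on 5 of 5 days, with a log2 difference of 2.44 ± 0.42 (SE; limma adjusted p = 0.000129), and it led the members in middle against free as well, at 3.36 ± 0.42 (limma adjusted p = 3e-06). ASU_10676 had 0.2, 0.1, 0.3, 0.4 and 1.7 in the free fraction and 1.1, 4.7, 10.1, 9.0 and 12.1 in the heavy one, which differed on the log2 scale by 2.28 ± 0.33 (limma adjusted p = 3.19e-05). Its free values stayed near the floor on each day.

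The member next to ASU_15428 in middle against free was ASU_15410. It had 0.1, 0.2, 2.4, 1.9 and 0.0 in the free fraction from day 0 to day 7 and 2.5, 5.5, 20.6, 40.4 and 27.5 in the middle one, which differed on the log2 scale by 3.09 ± 0.39 (limma adjusted p = 3.34e-06). Heavy values were 0.2, 1.9, 7.6, 12.2 and 5.0. Middle was its highest fraction on 5 of 5 days.

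ASU_00946 and ASU_03584 had the largest differences among those lower in heavy than free on each day. ASU_00946 had 8.9, 18.4, 21.6, 45.6 and 32.7 in the free fraction and 1.6, 1.0, 1.1, 1.9 and 3.2 in the heavy one, a log2 value for heavy minus free of -3.13 ± 0.33 (limma adjusted p = 3.76e-06). Its free values were highest on day 5, while the heavy ones were at 3.2 or less throughout. ASU_03584 had 6.3, 16.8, 25.5, 12.1 and 4.7 in the free fraction and 1.3, 1.8, 1.9, 0.9 and 1.4 in the heavy one, a change of -2.31 ± 0.35 on the log2 scale (limma adjusted p = 4.3e-05). Both were thus higher by RPKM in the free fraction than in the heavy one. This does not give the share of the RNA held in each.

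The 2 members lower in middle than free were ASU_10177 and ASU_09182. ASU_10177 had 2.5, 13.2, 42.3, 12.5 and 8.4 in the free fraction and 1.2, 4.9, 17.8, 4.0 and 2.3 in the middle one. They differed by -1.22 ± 0.31 on the log2 scale (limma adjusted p = 0.00263; 0.201 without the block by day). It peaked on day 3 in both. ASU_09182 had 0.9, 2.3, 5.0, 1.1 and 7.1 in the free fraction and 0.3, 1.1, 1.1, 0.0 and 2.1 in the middle one, a log2 difference of -1.03 ± 0.29 (limma adjusted p = 0.00443; 0.111 without the block by day).

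By RPKM, heavy minus free was higher on days 3 to 7 than on days 0 and 1 for the members, as for all genes. The summed RPKM of all genes also differed between days. It was 540687 in free and 236086 in heavy on day 0, and 503595 and 466749 on day 7. The part of this in the differences was not tested. The members' median log2 difference of heavy minus free was -0.43, -0.29, 0.41, 0.61 and 0.61 over the 5 days. For all genes it was -0.22, -0.14, 0.00, 0.46 and 0.53. Heavy exceeded free for 25 of the 131 members on day 0, 69 on day 3 and 86 on day 7. Among all 15399 genes it did so for 4856, 6465 and 9525 on the same days. On day 3, the highest fraction of the 91 members at 10 or more was free for 28 (30.8%), middle for 48 (52.7%) and heavy for 15 (16.5%). Of the 7246 genes at 10 or more that day, it was free for 17.0%, middle for 70.0% and heavy for 12.9%. These are single gradients, and the difference between members and other genes on day 3 was not tested.

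**Figure D5:**
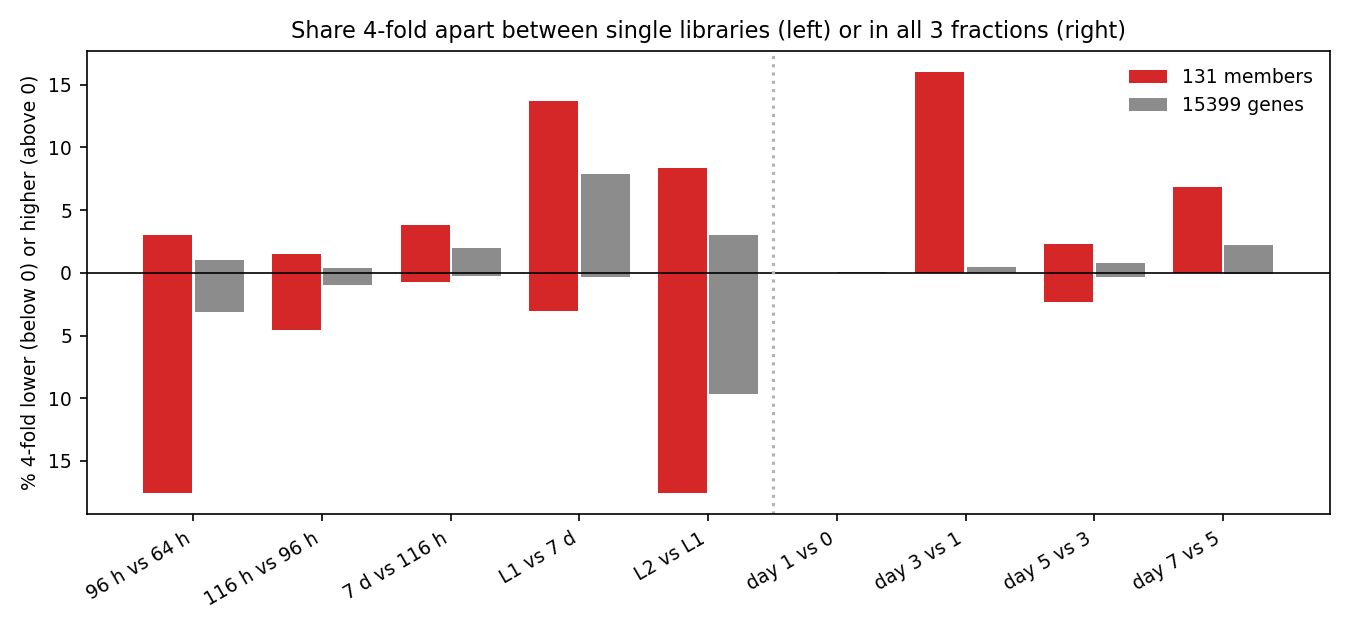
Percent of the 131 members and of 15399 genes that were at least 4-fold higher (above 0) or lower (below 0) on RPKM + 1, between neighbouring poly(A) libraries (left) and between neighbouring gradient days in all 3 fractions (right). From day 1 to day 3 16.0% of members and 0.494% of genes were higher.

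From day 3 to day 5, which shares the day 3 gradient with the comparison above, 3 members were 4-fold higher in all fractions (2.29%; all genes 0.773%) and 3 lower (all genes 0.37%). From day 5 to day 7 9 were higher (6.87%; all genes 2.23%) and none was lower (all genes 0.11%). From day 0 to day 1 no member was higher or lower by this measure (all genes 0.0455% and 0.00649%). Members at 10 or more in poly(A) RNA at 96 h or 116 h had a median day 5 gradient mean of 22.3, the 52 lower ones of 2.7 and the 11 under 1 of 1.0.

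The step from 32 to 64 cells to 256 cells was the only one tested with both kinds of library, taking poly(A) RNA and the mean of the gradient fractions as replicates of a stage, as the series' design text does. limma was run on 8 libraries of 4 stages with kind of library as a term, and 129 of the 131 members passed its filter. At an adjusted p under 0.05 over 12961 genes, 8 members rose (6.11% of the 131; all genes 6.55%) and 6 fell (4.58%; all genes 1.2%). The median log2 difference was -0.08 for members and -0.15 for all genes. These counts rest on single libraries: the rise was seen for 1 member without the 116 h poly(A) library, 22 without the 7-day one, 3 without the day 5 gradient and 5 without the day 7 gradient. The fall was seen for 0 members without the 116 h library and 0 without the day 5 gradient.

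ASU_10496 and ASU_07295 rose most. ASU_10496 had 9.2, 10.5 and 9.1 at 24 h, 46 h and 64 h, 1.2 at 96 h, 0.8 at 116 h, 19.5 at 7 days, 514.6 in L1 and 3.6 in L2. In the free, middle and heavy fractions it had 15.9, 9.1 and 4.1 on day 3, 1.5, 3.3 and 3.2 on day 5 and 107.6, 164.0 and 244.8 on day 7. It had 2 separate peaks, a low one up to day 3 and a high one from 256 cells, with a log2 difference between the stages of 4.54 ± 0.70 (SE; limma adjusted p = 0.000454; 0.0853 without the 116 h library and 0.0734 without the day 5 gradient).

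ASU_07295 had 5.4, 13.2 and 14.9 at 24 h, 46 h and 64 h, 2.1 at 96 h, 0.3 at 116 h, 12.6 at 7 days, 11.6 in L1 and 147.9 in L2. On day 5 it had 0.5, 0.7 and 2.1 and on day 7 9.5, 39.0 and 36.1 in the free, middle and heavy fractions. The log2 difference was 3.59 ± 0.51 (limma adjusted p = 0.000232; 0.0514 without the 116 h library). It too was low at 116 h between its earlier and later levels.

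ASU_08671 and ASU_13890 fell most. ASU_08671 had 3.0, 5.7 and 21.0 at 24 h, 46 h and 64 h, 40.5 at 96 h, 11.7 at 116 h, 1.5 at 7 days, 29.5 in L1 and 210.3 in L2. In the gradient it had 154.1, 89.9 and 43.2 on day 3, 94.2, 35.9 and 2.7 on day 5 and 7.5, 4.7 and 4.5 in the last gradient. The log2 difference was -2.57 ± 0.56 (SE; limma adjusted p = 0.00652; 0.0581 without the 116 h library and 0.277 without the day 5 gradient). It was higher in free than in heavy on 5 of 5 days.

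ASU_13890 had 0.0 in oocytes, 1.5, 2.3, 0.9 and 6.5 in the zygote regions, 5.7, 15.7 and 23.1 at 24 h, 46 h and 64 h, 21.0 at 96 h, 5.8 at 116 h, 0.3 at 7 days and 0.0 in both larvae. In the gradient it had 0.9, 16.0 and 6.3 on day 3, 0.5, 10.4 and 11.2 on day 5 and 0.0, 1.5 and 0.0 in the last gradient. The log2 difference was -2.43 ± 0.52 (limma adjusted p = 0.006; 0.0724 without the 116 h library and 0.247 without the day 5 gradient). It was at 10 or more in poly(A) RNA from 46 h to 96 h, and at 1.5 or less in each library of 256 cells and of larvae.

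ASU_02907 was the second highest member at 96 h or 116 h. It had 0.0 in oocytes, 0.0 to 0.5 in the zygote regions, 3.8 at 24 h, 17.3 at 46 h, 73.8 at 64 h, 285.3 at 96 h, 122.9 at 116 h, 108.5 at 7 days, 220.9 in L1 and 25.4 in L2. In the free, middle and heavy fractions it had 22.7, 47.4 and 71.3 on day 3, 51.1, 77.3 and 287.4 on day 5 and 48.2, 81.4 and 161.7 in the last gradient. Like ASU_03503 it was most abundant after the first cleavages. ASU_03503 itself went from 1.0, 1.2 and 0.3 on day 1 to 76.3, 150.0 and 189.2 on day 3, 1044.3, 4165.5 and 7133.7 on day 5 and 1935.0, 5838.0 and 5814.5 on day 7.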

How the data were processed

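The authors deposited RPKM values with 1 decimal for 15399 gene identifiers in 28 columns. Per the labels, poly(A) RNA was fragmented, random-primed and amplified by PCR before Illumina sequencing. The submitters' processing notes name Bowtie 0.12.7. Which build, annotation and counter went with it is not given in the sources used here. Columns were matched to 18 samples by name; the other 10 samples were not analysed here. That the oocyte and 64 h columns are the poly(A) libraries is an inference that their names alone do not settle. Sequencing depth is unknown, so no counting interval is given. Reads shared between similar or overlapping genes were not examined.

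The members, lists and tests were chosen with earlier results of these data known. Gene lists under names from another nematode were not used, since the files pair no identifier with a name. limma 3.58.1 (R 4.3.3) was run on log2(RPKM + 1) with an intensity trend over genes at RPKM 1 or more in at least 2 columns, with Benjamini-Hochberg adjustment at 0.05, and was tested on simulated data. The day was the block for the fractions. On simulated data the heavy against free fit on 13771 genes recovered 94% of changes of 2 on the log2 scale and 24% of changes of 1, and the stage fit on 12961 genes 64% and 6%. Members were named by rule. These were the highest 2 in each description and the 2 with the largest log2 change among those called with one sign throughout. Those next to each threshold and the 2 of highest Pearson r with the median profile were named as well.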

Additional observations from a re-analysis of the deposited data

How the results depend on the processing

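Of 117 recomputed counts, 82 lay within 1.5 times the reported count; the cause of the other 35 was not tested except where fewer samples or genes make it plain. Without the replicate block by day, the members higher in heavy than free were 6, lower 4, higher in middle than free 22 and lower 0. The shares of all genes without this block were 17.6%, 4.42%, 36.3% and 0.261%. Under quantile normalization 39 were lower in heavy, 25 higher in middle and 41 lower in middle (all genes 27.4%, 22.8% and 21.3%). Under median-ratio scaling the counts were 52, 17 and 49 (all genes 38.5%, 19.9% and 32.6%). With RPKM 10 required in 2 columns, 1 was lower in middle. With one day left out, 16 to 37 were higher and 17 to 34 lower in heavy, 44 to 65 higher and 2 to 4 lower in middle. With only days 3, 5 and 7, chosen after seeing the data, the counts were 41, 19, 64 and 3. From 32 to 64 cells to 256 cells, 2 members rose and 0 fell with no filter, 4 and 0 with no term for preparation, and 5 and 1 with the heavy fraction as the polysome value; 3 fell with RPKM 10 in 2 libraries. With one library left out, 1 to 22 rose and 0 to 6 fell, where the lone library of a stage is assumed to vary like the others.

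The rule itself gave 86 members at RPKM 20 in place of 10 and 34 when both 46 h and 64 h had to pass; without the 46 h library it gave 102 and without the 64 h library 63, a range of 63 to 102. With 5 in place of 1 added to the RPKM, 10 members were 4-fold higher on day 3 than day 1, 3 lower at 96 h than 64 h and 8 higher in L1 than at 7 days. With a fold of 2, 40 were lower at 96 h than 64 h. No member named for a limma contrast changed sign. ASU_00946, ASU_03584, ASU_10676, ASU_15410 and ASU_15428 stayed past the threshold in all 14 alternatives tried for each. ASU_08671 missed it in 5 of 17, ASU_13890 in 4 of 16, ASU_10496 in 3 of 17 and ASU_07295 in 1 of 17. ASU_10177 missed it in 1 of 14 and ASU_09182 in 1 of 13, both without the block by day. Low values limit the comparisons most in L2, and members near RPKM 10 could be on either side of the rule.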

Other observations

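ASU_08196 was seen in the heavy fraction and hardly elsewhere in the gradient. Its heavy values were 0.0, 3.9, 14.5, 25.8 and 17.7 from day 0 to day 7, its free values 0.0, 0.0, 0.0, 0.0 and 1.6, and its middle values 0.0, 0.0, 0.0, 0.0 and 0.9. In poly(A) RNA it had 16.7 at 64 h and 30.6, 30.3, 42.1 and 35.1 from 96 h to L1. ASU_12837 had 263.3, 225.8 and 172.7 in the free, middle and heavy fractions of day 3, after at most 1.3 on day 1, and 29.2, 23.9 and 8.4 on day 5. In poly(A) RNA it had 0.7 at 46 h, 58.7 at 64 h, 37.3 at 96 h and 3.6 at 116 h. Both were chosen after their values were seen.

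Among the members 1 pair had consecutive identifiers, ASU_02907 and ASU_02908. Their log2(RPKM + 1) values had a Pearson r of 0.938 over the 28 columns, a description across libraries that share stages. ASU_02908 had 2.2 at 24 h, 5.3 at 46 h, 17.2 at 64 h, 92.6 at 96 h, 33.7 at 116 h, 34.9 at 7 days, 79.7 in L1 and 8.2 in L2, below ASU_02907 in each of these libraries. Whether the genes are neighbours or share reads was not tested.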
